A study of Mus musculus with 18 samples.

Results

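Adenosine receptors and the genes that make, break down and carry adenosine were followed across 3 mouse fat depots. The 9 genes were taken by their symbols: the receptors Adora1, Adora2a, Adora2b and Adora3, the cell-surface enzymes Nt5e and Entpd1, the intracellular enzymes Ada and Adk, and the nucleoside carrier Slc29a1. They are 9 of 45151 symbols with a row in all 18 RNA-seq libraries. The libraries came from wild-type male C57BL/6J mice (strain label C57BL/6) that were 16 weeks old and ate regular chow. Inguinal fat (iWAT, n = 6) and epididymal fat (eWAT, n = 6) were digested with collagenase and the floating adipocyte layer was sequenced. Brown fat (BAT, n = 6) was instead sequenced as whole tissue. No group carried a transgene, a deletion or a drug. In every comparison with BAT, depot and preparation therefore cannot be told apart, and in bulk RNA fewer cells of a type cannot be told apart from less RNA per cell. The labels do not state that the samples of a depot are separate animals, so the p-values measure the spread between these samples.

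Adenosine outside the cell is made from ATP in steps. ENTPD1 (CD39) takes ATP and ADP to AMP, and NT5E (CD73) takes AMP to adenosine. ADORA1 and ADORA3 couple to Gi and lower cAMP, whereas ADORA2A and ADORA2B couple to Gs and raise it, and in white adipocytes adenosine acting on ADORA1 is a known brake on lipolysis. SLC29A1 (ENT1) carries adenosine across the plasma membrane along its gradient, and inside the cell ADK returns it to AMP while ADA converts it to inosine.

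Levels are given as RPKM, the reads per kilobase of a row scaled to each sample's total, which was 22929576 to 34512470 reads. A row is a gene with merged exons in the iWAT and BAT files and a single transcript in the eWAT files, where the transcript with the most reads was taken. None of the 9 genes has the same row in both kinds of file, and the kind of row follows the depot. The members' comparisons with eWAT are therefore given per row length and again on the reads alone, without a length offset. Sums of marker genes are given in RPKM over the same kinds of row and were not repeated on reads alone. The label check held: Adipoq, which encodes adiponectin, had 867.5 to 2351 RPKM in the white adipocyte samples and 258 to 394 in BAT, and Ucp1, the brown fat uncoupling protein, had 969 to 1509 in BAT and at most 5.77 elsewhere. eWAT sample 15 stood apart, with the lowest Adipoq of the white adipocyte samples and a summed RPKM of 8 macrophage markers of 2218, against 155 to 518 in the other eWAT samples, 31.2 to 191 in iWAT and 31.2 to 68.8 in BAT. All 8 of these markers had reads in every sample. In eWAT samples 14 and 15 the 5 epididymis markers summed to 76.4 and 69.9, against at most 3.62 in the other eWAT samples. Results that rest on eWAT sample 15 are given with and without it.

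The sequences before the start sites of 3 members are shown because they differ in level: Adora1 was the most abundant receptor, and Adora2b and Entpd1 were highest in eWAT. Each is the 250 bases before an annotated start, from RefSeq (GRCm38.p6), 5′ to 3′ on the gene's strand, with the GC box GGGCGG or its reverse complement in capitals.
Adora1 (minus strand, chr1:134235458-134235707): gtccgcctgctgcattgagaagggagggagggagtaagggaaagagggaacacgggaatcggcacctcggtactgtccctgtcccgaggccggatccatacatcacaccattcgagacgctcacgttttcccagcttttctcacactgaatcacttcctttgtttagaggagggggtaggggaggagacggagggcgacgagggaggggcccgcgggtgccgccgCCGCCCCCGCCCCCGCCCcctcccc
Adora2b (plus strand, chr11:62248734-62248983): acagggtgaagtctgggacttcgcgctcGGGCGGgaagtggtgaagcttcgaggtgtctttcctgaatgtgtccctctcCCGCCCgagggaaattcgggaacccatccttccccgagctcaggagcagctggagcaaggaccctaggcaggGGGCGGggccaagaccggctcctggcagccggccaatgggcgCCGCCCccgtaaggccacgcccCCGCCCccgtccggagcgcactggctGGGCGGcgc
Entpd1 (plus strand, chr19:40612116-40612365): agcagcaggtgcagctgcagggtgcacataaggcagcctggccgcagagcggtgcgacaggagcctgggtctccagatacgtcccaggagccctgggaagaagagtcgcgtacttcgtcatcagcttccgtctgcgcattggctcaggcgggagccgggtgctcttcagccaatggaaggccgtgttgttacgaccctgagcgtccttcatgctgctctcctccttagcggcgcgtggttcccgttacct
Adora1 held 3 GC boxes in this stretch, Adora2b held 6 and this Entpd1 start held 0. The stretch before the other Adora1 start, which is not shown, held 0. This Entpd1 start is upstream of that of the eWAT row of Entpd1, which begins at 40734284 in mm9. Short transcripts at the upstream start, ENSMUST00000160286 and ENSMUST00000163023, had 1 and 0 reads over all eWAT samples. AK029512, a transcript of 10 exons that begins at 40686887 there, had 2788 reads. How many of these lie in exons shared with the measured eWAT row is not given. The stretch shown is thus not the one before the measured eWAT row, and the stretch before the other Entpd1 start also held 0 GC boxes. In all, 8 of the 9 genes had an entry, with 18 starts between them, and 10 of these 18 stretches held a GC box on either strand, against 32.7% of 32851 stretches of the same length in the table. Slc29a1 alone had 8 of the 18 starts, and 4 of its stretches held a GC box. The cAMP response element TGACGTCA was in 0 of the 18 and in 1.55% of all stretches. These matches describe letters in the window only.

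Adora1, the Gi-coupled receptor, was by far the most abundant of the 4 receptors. Its row lies on chromosome 1 of mm9, minus strand, positions 136095799 to 136132034. In iWAT it had 20.4, 18.05, 25.1, 23.5, 20.3 and 21.3 RPKM in samples 7, 11, 12, 13, 14 and 15. In BAT it had 22.4, 20.6, 16.5, 18.3, 16.4 and 20.4 RPKM in samples 6, 7, 8, 11, 12 and 13. In eWAT it had 12.3, 12.999, 13.7, 14.4, 13.96 and 7.36 RPKM in samples 7, 8, 11, 13, 14 and 15. All 6 eWAT samples lay below every iWAT and BAT sample, with sample 15 the lowest, while iWAT and BAT overlapped. The mean was 21.4 ± 2.50 in iWAT, with 19.1 ± 2.43 for BAT and 12.4 ± 2.59 for eWAT (SD, n = 6 each).

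The eWAT row of Adora1 was NM_001008533, whose 5782 bp are close to the 6078 bp of the merged row. The log2 fold change was -1.35 ± 0.14 (SE) in eWAT against BAT and 1.21 ± 0.14 in iWAT against eWAT. Both passed edgeR's quasi-likelihood test with Benjamini-Hochberg adjusted p of 5.35e-08 and 7.84e-07. On reads alone they were -1.03 and 0.87, and without eWAT sample 15 they were -1.23 and 1.10 per row length, all past the threshold. The size in eWAT against BAT depended on the scaling. Without TMM scaling it was -0.62 per row length, which still passed edgeR's test (adjusted p = 4.34e-04), and by limma on log2(RPKM + 0.1) it was -0.64. Between iWAT and BAT the log2 difference was -0.10 ± 0.10 (adjusted p = 0.364), and it turned to 0.17 without TMM scaling (adjusted p = 0.163). The 3′ end of Adora1 overlaps 661 exonic bases of Mybph on the other strand, and whether the counting used strand is not stated. Mybph reads came to 14.8% to 18.2% of Adora1 reads over all samples, and in eWAT the Adora1 transcript AK134709, which starts beyond Mybph, had 14.95 ± 3.25 RPKM (SD, n = 6).

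Adora2a, the Gs-coupled receptor of high affinity, was detected in every sample, with a spread within depots as wide as that between them. It lies on chromosome 10 of mm9, plus strand, positions 74779688 to 74797537, and its eWAT row of 2534 bp nearly matches the merged 2538 bp. In iWAT it had 1.43, 1.03, 2.88, 2.25, 6.76 and 1.26 RPKM in samples 7, 11, 12, 13, 14 and 15. In eWAT it had 1.62, 4.52, 4.06, 5.73, 2.43 and 3.06 RPKM in samples 7, 8, 11, 13, 14 and 15. In BAT it had 2.12, 2.84, 2.01, 4.83, 2.61 and 4.82 RPKM in samples 6, 7, 8, 11, 12 and 13. The 3 depots overlapped, and the highest of all 18 samples was iWAT sample 14.

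No depot difference of Adora2a passed the threshold with all samples and without pairing by number. The log2 fold changes were -0.54 ± 0.41 (iWAT against BAT, adjusted p = 0.255), -0.56 ± 0.40 (eWAT against BAT, adjusted p = 0.209) and 0.00 ± 0.40 (iWAT against eWAT, adjusted p = 0.996). On reads alone the comparisons with eWAT were -0.17 (eWAT against BAT, adjusted p = 0.717) and -0.42 (iWAT against eWAT, adjusted p = 0.478). Without iWAT sample 14 the first became -1.10 and passed (adjusted p = 0.00410), so that 1 library decides this call. The summed RPKM of 8 endothelial markers was 190 in iWAT sample 14, against 33.8 to 96.1 in the other iWAT samples, 109 to 280 in eWAT and 60.7 to 121 in BAT. All 8 markers had reads in every sample. The part of endothelial RNA in the Adora2a level was not tested.

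Adora2b, the Gs-coupled receptor of low affinity, was low in iWAT, near 0 in BAT and highest in eWAT. It lies on chromosome 11 of mm9, plus strand, positions 62062486 to 62079955, and its eWAT row of 1844 bp nearly matches the merged 1845 bp. In eWAT it had 0.320, 0.573, 0.281, 1.38, 0.448 and 4.52 RPKM in samples 7, 8, 11, 13, 14 and 15. In iWAT it had 0.189, 0.635, 0.135, 0.112, 0.205 and 0.105 RPKM in samples 7, 11, 12, 13, 14 and 15. In BAT it had at most 0.0731 RPKM, with 0 to 4 reads a sample and 0 reads in 2 samples. Every eWAT and iWAT sample lay above every BAT sample, and iWAT and eWAT overlapped through iWAT sample 11.

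Adora2b entered the comparison of eWAT with BAT only because it passed the filter on low reads in eWAT and iWAT samples, and BAT had 10 reads in all, so its fitted fold is a description that supports no count. The log2 fold change in eWAT against BAT was 4.63 ± 0.89 and 5.03 on reads alone, and without eWAT sample 15 it was 3.55 and 3.93. In iWAT against eWAT it was -2.01 ± 0.69 (adjusted p = 0.0211), and without eWAT sample 15 it was -0.93 and no longer passed (adjusted p = 0.151). On reads alone it was -2.44 (adjusted p = 0.0164), and -1.34 without that sample (adjusted p = 0.0803). For this comparison the gene met the filter through its eWAT samples (15 to 273 reads, against 5 to 30 in iWAT). These values too are therefore a description that supports no count. In iWAT against BAT the gene was too low for the filter, and with no filter its fitted log2 fold change was 2.67 ± 0.65, which rests on the same BAT reads. Within eWAT the samples with the most macrophage marker RPKM were also those with the most Adora2b: sample 15 (2218 of macrophage markers) and sample 13 (518). The part of macrophage RNA in this result was not tested.

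Adora3, the other Gi-coupled receptor, was at the limit of detection. It had 6 reads over the iWAT samples, 15 over eWAT and 10 over BAT, and no sample had more than 5 reads. An RPKM of 0.0372 to 0.0476 is worth 3 reads in eWAT and one of 0.0143 to 0.0216 in the other depots, counting error only. With no filter no comparison passed edgeR's test (adjusted p = 0.518, 0.206 and 0.0949 for iWAT against BAT, eWAT against BAT and iWAT against eWAT), so no depot difference was detectable at this depth. The row on chromosome 3, plus strand, 105658445 to 105731215, also holds exons of I830077J02Rik on the other strand.

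Of the summed receptor RPKM, Adora1 made up 74.4% to 93.9% in iWAT, 78.9% to 91.3% in BAT and 49.1% to 86.4% in eWAT. Adora2a made up 5.23% to 24.8%, 8.66% to 20.8% and 11.3% to 26.6% in the same order. Adora2b reached 30.1% in eWAT sample 15 and was 3.22% or less in iWAT and 0.289% or less in BAT. Adora1 was thus the first receptor in each of the 18 samples. These shares are a description with no test.

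**Figure D1:**
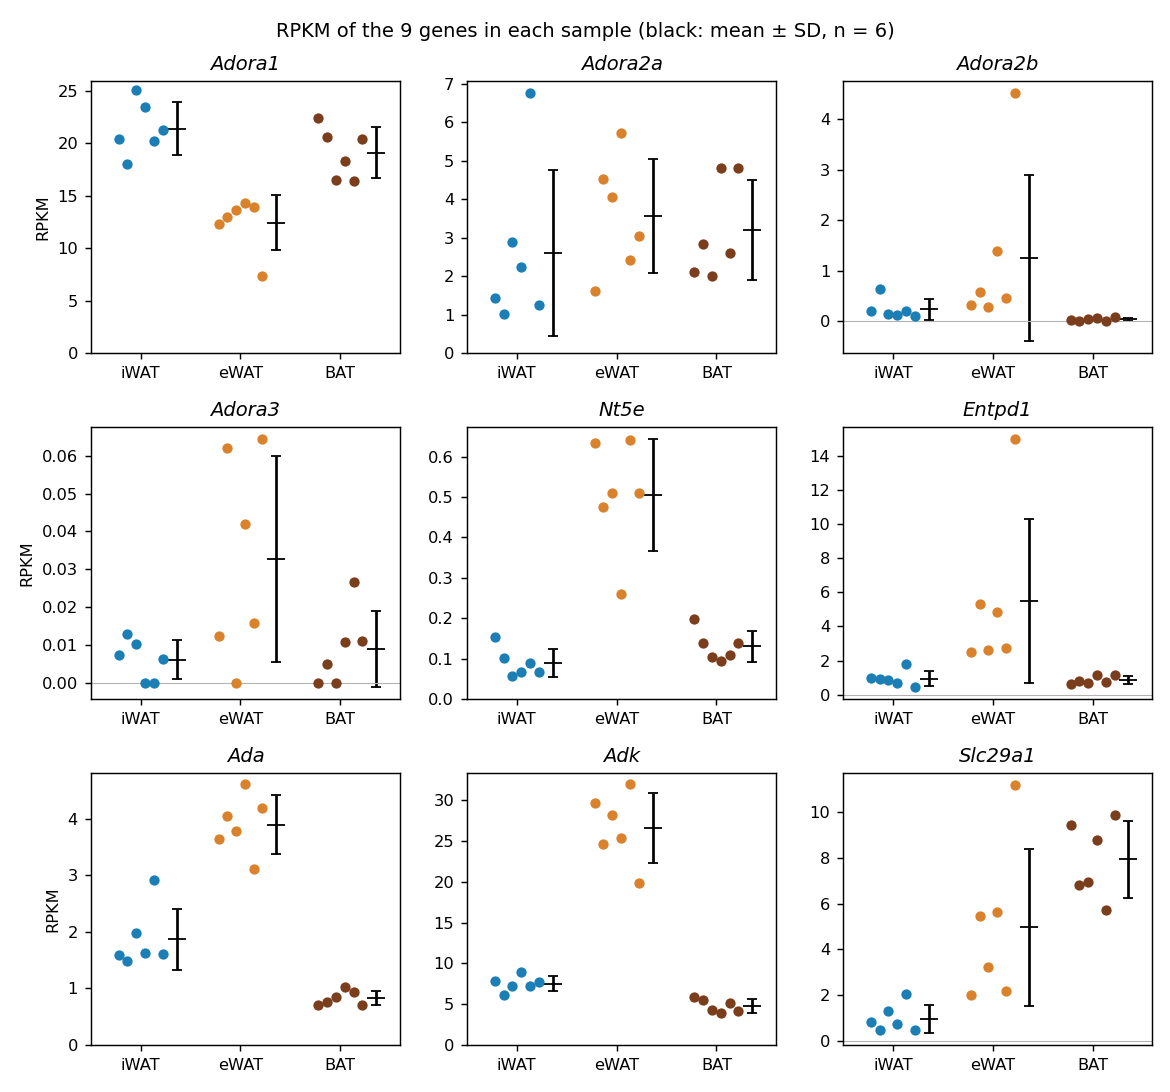
RPKM of each of the 9 genes in every sample, by depot (linear axes, a separate scale for each gene), with the mean ± SD of 6 samples in black. All 6 eWAT samples of Adora1 sit between 7.36 and 14.4, below every iWAT and BAT sample, while Slc29a1 is lowest in iWAT and eWAT sample 15 is the highest point of Adora2b and Entpd1.

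Of the cell-surface enzymes, Entpd1 was higher in eWAT and Nt5e was low in all depots. Entpd1 (chromosome 19, plus strand, 40686856 to 40827279) had 2.51, 5.32, 2.598, 4.82, 2.72 and 14.96 RPKM in eWAT samples 7, 8, 11, 13, 14 and 15. It had 0.468 to 1.78 RPKM in iWAT (median 0.870), with sample 14 the highest, and 0.6249 to 1.165 in BAT (median 0.764). No eWAT sample overlapped the other depots, and eWAT sample 15 was far above the rest. As RPM, which scales reads to the sample total but not to row length, iWAT sample 14 (12.2) lay within the eWAT range (10.5 to 62.8).

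The log2 fold change of Entpd1 was 1.97 ± 0.41 in eWAT against BAT (adjusted p = 2.75e-04) and -2.09 ± 0.41 in iWAT against eWAT (adjusted p = 3.67e-04). On reads alone it was 1.67 and -1.82, and without eWAT sample 15 it was 1.34 and -1.46 per row length, all past the threshold. In iWAT against BAT it was -0.10 ± 0.26 (adjusted p = 0.756), and 0.15 without TMM scaling (adjusted p = 0.635). Macrophage marker RPKM was higher in all 6 eWAT samples (155 to 2218) than in every BAT sample and 5 of the 6 iWAT samples. The marker rows also differ in kind between eWAT and the other depots. Endothelial marker RPKM was 109 to 280 in eWAT, 33.8 to 190 in iWAT and 60.7 to 121 in BAT. The 190 was in iWAT sample 14, which had the most Entpd1 of iWAT, and eWAT sample 15 had 111. The part of macrophage or endothelial RNA in the Entpd1 result was not tested.

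Nt5e (chromosome 9, plus strand, 88222447 to 88266927) had 0.0584 to 0.153 RPKM in iWAT (13 to 28 reads a sample), 0.0942 to 0.199 in BAT (22 to 55 reads) and 0.259 to 0.640 in eWAT (28 to 77 reads). Its merged row is 7996 bp, whereas the eWAT row NM_011851 is 3580 bp, so the eWAT RPKM is set over a shorter row. As RPM, iWAT had 0.467 to 1.22, BAT 0.753 to 1.59 and eWAT 0.928 to 2.29, and all 3 depots overlapped. The log2 fold change of -0.82 ± 0.28 in iWAT against BAT passed (adjusted p = 0.0194), but not without TMM scaling (-0.55, adjusted p = 0.0766). By limma it did not pass on log2(RPKM + 0.1) (-0.28, adjusted p = 0.102) or on log2(RPKM + 1) (-0.053, adjusted p = 0.143). The gene was higher in eWAT than in BAT per row length (1.22 ± 0.28, adjusted p = 6.91e-04), and on reads alone this was lost (0.46, adjusted p = 0.147). In iWAT against eWAT the change was -2.06 ± 0.29 per row length and -1.32 ± 0.29 on reads (adjusted p = 1.18e-05 and 0.00252).

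Slc29a1, the equilibrative nucleoside carrier, had the largest iWAT to BAT difference of the members. Its row lies on chromosome 17 of mm9, minus strand, positions 45722149 to 45736555. In BAT it had 9.46, 6.81, 6.96, 8.77, 5.74 and 9.88 RPKM in samples 6, 7, 8, 11, 12 and 13. In iWAT it had 0.815, 0.465, 1.30, 0.755, 2.05 and 0.476 RPKM in samples 7, 11, 12, 13, 14 and 15. In eWAT it had 2.01, 5.46, 3.26, 5.65, 2.21 and 11.2 RPKM in samples 7, 8, 11, 13, 14 and 15. BAT and iWAT did not overlap. In RPKM eWAT sample 15 exceeded every BAT sample. The other 5 eWAT samples lay below BAT, the lowest of them within the iWAT range. As RPM all 6 eWAT samples (4.46 to 24.8) lay below every BAT sample (27.0 to 46.5) and overlapped iWAT (2.19 to 9.67).

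Slc29a1 was 9.68-fold higher in BAT than in iWAT, a log2 fold change of -3.28 ± 0.33 in iWAT against BAT (adjusted p = 7.89e-07). In eWAT against BAT the log2 fold change was -1.41 ± 0.39 (adjusted p = 0.00336), -2.09 on reads alone (adjusted p = 1.64e-04) and -0.68 without TMM scaling, where it did not pass (adjusted p = 0.119). In iWAT against eWAT it was -1.89 ± 0.41 (adjusted p = 8.05e-04) and -1.24 on reads alone (adjusted p = 0.0321), and on reads without eWAT sample 15 it was -0.79 and did not pass (adjusted p = 0.114). Without eWAT sample 15 eWAT against BAT was -1.84 per row length and -2.53 on reads alone, both past the threshold. The eWAT row is 2216 bp and the merged row 4709 bp, which overlaps 811 exonic bases of Gm17080 on the other strand. The summed endothelial markers of iWAT (33.8 to 190) and BAT (60.7 to 121) overlapped. Within iWAT, Slc29a1 and this sum ranked the samples alike. Sample 14 was first (2.05 RPKM, sum 190) and sample 11 last (0.465 RPKM, sum 33.8). Within BAT and within eWAT the ranks differed. BAT sample 6 had 9.46 RPKM with a sum of 65.7, and eWAT sample 15 had 11.2 RPKM with 111. That eWAT sample also had the most macrophage marker RPKM (2218). The part of endothelial or macrophage RNA in the Slc29a1 result was not tested.

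**Figure D2:**
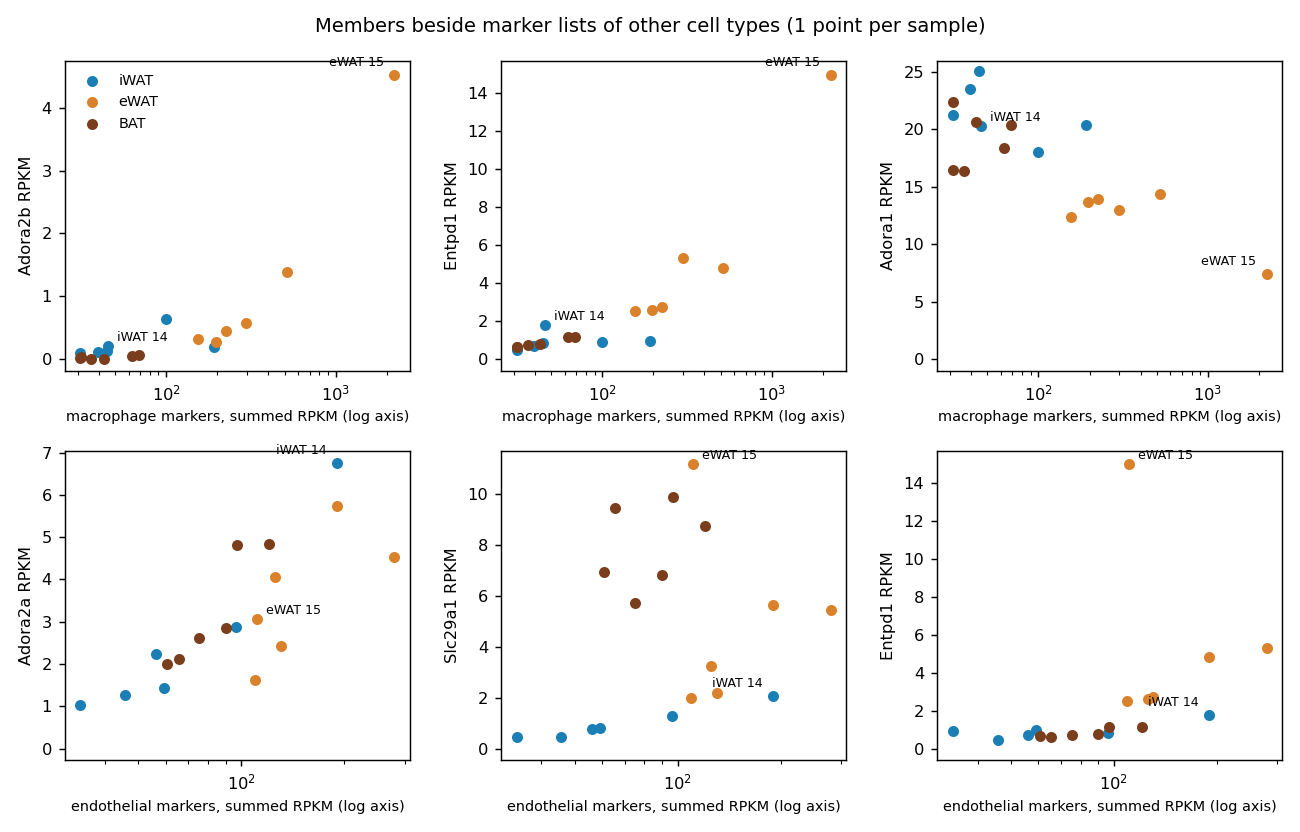
RPKM of 5 members (vertical axes, linear) against the summed RPKM of macrophage or endothelial markers (horizontal axes, log scale), with 1 point per sample coloured by depot. eWAT sample 15 has both the highest macrophage sum (2218) and the highest Adora2b (4.52) and Entpd1 (14.96), and iWAT sample 14 has the highest endothelial sum of iWAT (190) and the highest Adora2a (6.76).

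Adk, the kinase that returns adenosine to AMP, was more abundant in each depot than Ada, the other intracellular enzyme of the 9 genes. Its row lies on chromosome 14 of mm9, plus strand, positions 21871833 to 22267784. It had 6.14 to 8.999 RPKM in iWAT (median 7.47), 3.87 to 5.84 in BAT (median 4.69) and 19.9 to 32.0 in eWAT (median 26.8). All 6 iWAT samples lay above every BAT sample. The log2 fold change in iWAT against BAT was 0.38 ± 0.13 and passed the threshold (adjusted p = 0.0182).

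The high eWAT level of Adk came with a much shorter row, 1818 bp (AK151863) against 7654 bp. As RPM, eWAT had 36.1 to 58.2, iWAT 47.0 to 68.9 and BAT 29.6 to 44.7, and eWAT overlapped both other depots. Per row length the log2 fold change was 1.75 ± 0.15 in eWAT against BAT (adjusted p = 3.07e-09) and -1.39 ± 0.14 in iWAT against eWAT (adjusted p = 2.45e-07). On reads alone it was 0.07 ± 0.14 (adjusted p = 0.664) and 0.26 ± 0.13 (adjusted p = 0.163), so both calls were lost and the direction between iWAT and eWAT turned.

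Ada, the deaminase, was lowest in BAT and highest in eWAT in RPKM, without overlap between depots. Its row lies on chromosome 2 of mm9, minus strand, positions 163549521 to 163575975. It had 0.7001 to 1.02 RPKM in BAT (median 0.801), 1.49 to 2.92 in iWAT (median 1.61), with sample 14 the highest, and 3.11 to 4.62 in eWAT (median 3.92). The log2 fold change was 0.92 ± 0.17 in iWAT against BAT (adjusted p = 2.18e-04), 1.51 ± 0.16 in eWAT against BAT (adjusted p = 5.93e-08) and -0.62 ± 0.15 in iWAT against eWAT (adjusted p = 0.00223). On reads alone eWAT against BAT was 1.28 (adjusted p = 7.32e-07), and iWAT against eWAT was -0.41 and did not pass (adjusted p = 0.0545).

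These Ada reads cannot be told apart from those of Pkig, a protein kinase inhibitor gene on the other strand. The 3′ end of the Ada row holds 702 exonic bases of Pkig, and in each sample the Ada reads came to 0.799 to 0.949 of the Pkig reads. In eWAT the Ada row was AK041500, a transcript of 1 exon with 256 to 432 reads a sample that covers the overlap. The spliced transcript NM_007398, which does not reach Pkig, had 17 to 56 reads and 0.568 ± 0.25 RPKM, against 3.90 ± 0.52 for AK041500 (SD, n = 6).

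**Figure D3:**
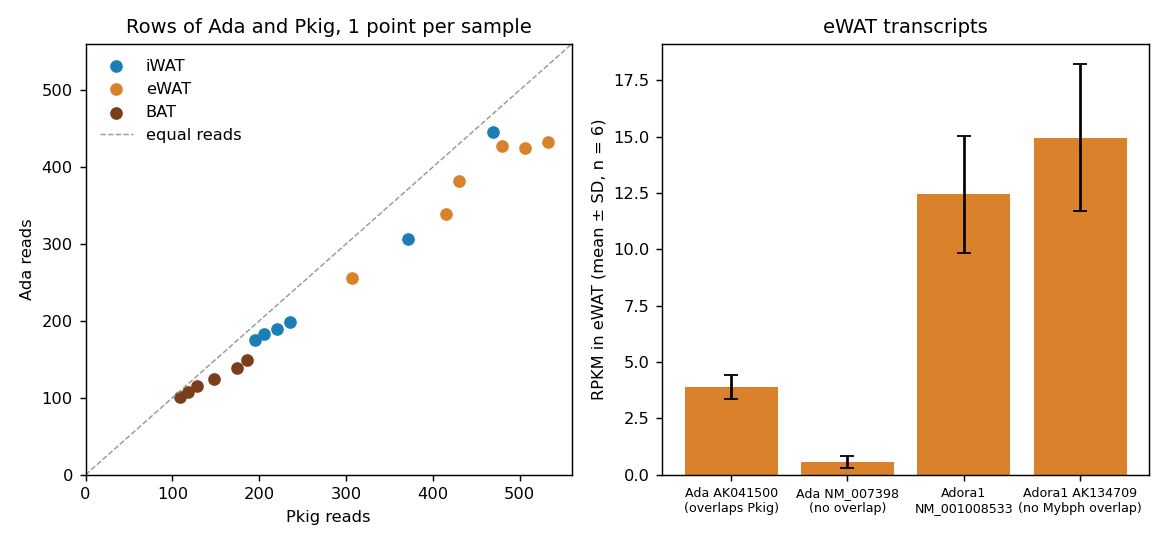
Left, reads of the Ada row against reads of the Pkig row with 1 point per sample and a dashed line of equal reads. Right, mean RPKM ± SD of Ada and Adora1 transcripts in 6 eWAT samples, where NM_007398 of Ada (no overlap with Pkig) has 0.568 RPKM against 3.90 for AK041500, while AK134709 of Adora1 (no overlap with Mybph) has 14.95.

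The rows of eWAT differ from those of iWAT and BAT, and Adk is set over 1818 bp in eWAT against 7654 bp. A change of order in eWAT therefore cannot be told apart from the change of rows. With Ada placed by reads that cannot be told apart from those of Pkig, the order of the levels in RPKM differed between the depots. In iWAT it ran Adora1, Adk, Adora2a, Ada, Slc29a1, Entpd1, Adora2b, Nt5e and Adora3, and the ranges separated only Adora1 from Adk and Nt5e from Adora3. In BAT it ran Adora1, Slc29a1, Adk, Adora2a, Entpd1, Ada, Nt5e, Adora2b and Adora3, and the neighbours whose ranges overlapped were Slc29a1 and Adk, Adk and Adora2a, Entpd1 and Ada, and Adora2b and Adora3. In eWAT, over transcript rows, it ran Adk, Adora1, Entpd1, Slc29a1, Ada, Adora2a, Adora2b, Nt5e and Adora3, and the ranges separated only Adk from Adora1 and Nt5e from Adora3.

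Of the 9 members, 7 passed the filter in iWAT against BAT and 4 of these passed the test, Ada and Adk higher in iWAT and Nt5e and Slc29a1 higher in BAT. Ada is counted here and below by reads that cannot be told apart from those of Pkig. Of all 19733 genes tested, 67.6% passed (34.0% higher in iWAT and 33.6% higher in BAT), so the members' share was near or below that of all genes. In eWAT against BAT 7 of 8 members tested passed, 5 higher in eWAT and 2 higher in BAT (Adora1 and Slc29a1), against 73.9% of 18383 genes (39.9% and 34.1%). These 7 include Adora2b, which was tested only through its eWAT and iWAT reads, so nothing is read from this count. On reads alone 5 of 8 passed, 3 and 2, against 70.3% (35.6% and 34.7%). In iWAT against eWAT 7 of 8 passed, Adora1 higher in iWAT and 6 higher in eWAT, against 52.4% (24.2% and 28.3%). On reads alone 5 of 8 passed, 1 and 4, against 25.6% (13.4% and 12.3%). Both of these counts include Adora2b, which met the filter through its eWAT reads, so nothing is read from them. The count of eWAT against BAT on reads alone includes it too, and so do the medians with eWAT below. The members' median log2 fold changes were -0.10, 1.37 and -1.64 in the 3 comparisons per row length, beside 0.01, 0.08 and 0.04 over all genes tested. On reads alone the medians were 0.26 in eWAT against BAT and -0.83 in iWAT against eWAT, beside 0.03 and 0.00 over all genes. Without TMM scaling the median of all genes moved to 0.27, 0.81 and -0.39, and the genes called higher and lower became 9107 and 4732, 11579 and 3143, and 955 and 8641, against 6717 and 6628, 7333 and 6260, and 4444 and 5196.

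**Figure D4:**
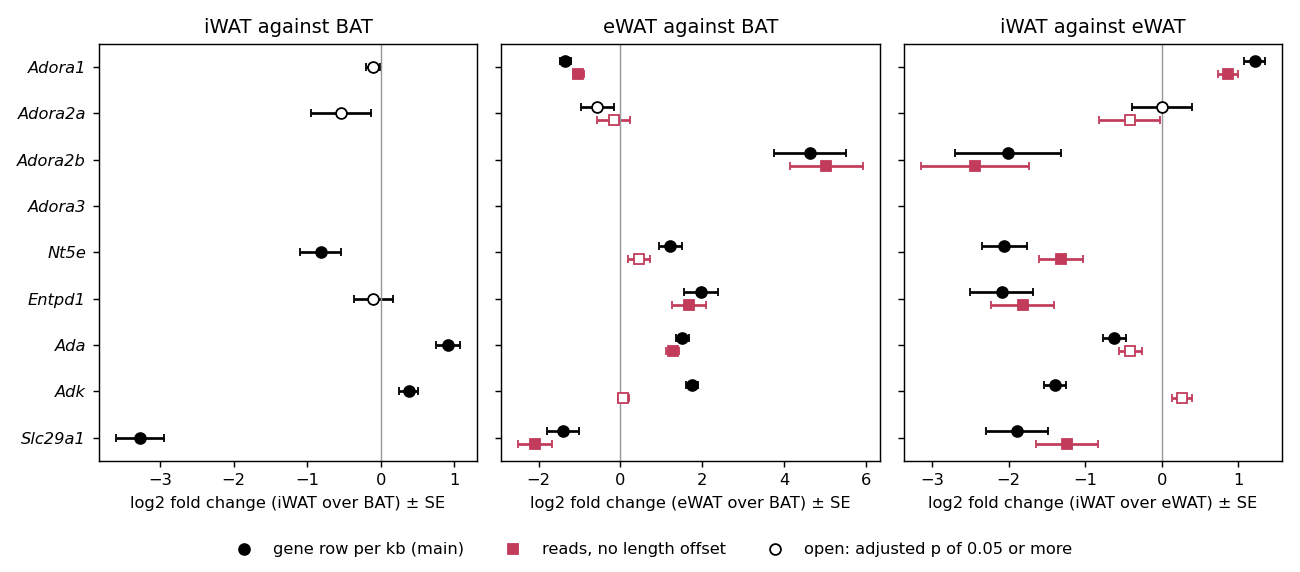
Log2 fold change ± SE of each member in the 3 comparisons, per row length (black circles) and on reads alone (red squares). Filled symbols passed an adjusted p under 0.05. Adora1 and Entpd1 keep their place under both, whereas Adk moves from 1.75 to 0.07 in eWAT against BAT.

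A list of 42 further genes of adenosine and purine metabolism in 8 groups was read beside the members. In iWAT against BAT 33 passed the filter, and 11 were higher in iWAT, 13 higher in BAT and 9 did not pass (median log2 fold change -0.11). The 24 that passed are a share near the 67.6% of all genes, and the groups below were not tested as groups. All 5 genes of salvage and purine breakdown passed. Gda, which deaminates guanine, was higher in iWAT (14.9 against 1.54 RPKM, log2 fold change 3.0005 ± 0.14, adjusted p = 4.75e-10), and so were Pnp, which splits inosine and guanosine (49.7 against 15.3 RPKM, 1.44 ± 0.18), and Xdh and Hprt (1.08 and 1.19). Aprt, which salvages adenine, was higher in BAT (-0.66).

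In the other groups, 3 of 5 tested genes of AMP deamination and the purine nucleotide cycle were higher in BAT and 0 in iWAT, beside 33.6% and 34.0% of all genes. Adssl1, the muscle-type adenylosuccinate synthase, had 11.7 RPKM in BAT and 0.707 in iWAT (-4.32 ± 0.31, adjusted p = 2.43e-08). The 5 skeletal muscle markers summed to 0.550 to 1340 RPKM in BAT, 1340 being in sample 12, and to 4.97 to 73.3 in iWAT, and their part in this result was not tested. Ahcyl1, a relative of S-adenosylhomocysteine hydrolase, was higher in BAT (71.2 against 15.1 RPKM, -2.50 ± 0.11), whereas its relative Ahcyl2 was higher in iWAT (1.19). Alpl, a phosphatase that can also make adenosine from AMP, was higher in BAT (2.07 against 0.299 RPKM, -3.04 ± 0.30), and so was Entpd4 of the Golgi (13.1 against 3.32 RPKM, -2.24 ± 0.09). Entpd2, an ecto-nucleotidase with a preference for ATP, was higher in iWAT (9.17 against 2.78 RPKM, 1.47 ± 0.16). Of the carriers, Slc29a3 of lysosomes was higher in iWAT (4.14 against 0.980 RPKM, 1.82 ± 0.11), the direction opposite to that of Slc29a1, while Slc29a2 and Slc28a2 were higher in BAT (-1.76 and -1.17).

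In eWAT against BAT 35 of the 42 were tested, and 19 were higher in eWAT and 8 higher in BAT per row length, or 16 and 12 on reads alone. The 27 and 28 that passed are shares near the 73.9% and 70.3% of all genes. Gda (3.14, and 2.75 on reads), Slc29a3 (2.18 and 2.43), Panx1 (2.63 and 2.88), a channel that lets ATP out of cells, and Ahcyl2 (2.71 and 1.12) were higher in eWAT. Ahcyl1 (-2.36 and -2.82), Alpl (-2.18 and -2.65) and Ampd2 (-1.59 and -1.72), an AMP deaminase, were higher in BAT. Adssl1 was higher in BAT per row length (-1.72, adjusted p = 0.0207) and did not pass on reads (-1.31, adjusted p = 0.0740). Without eWAT sample 15 Adssl1 was -3.26 per row length and passed on reads too (-2.87, adjusted p = 1.53e-06), and without BAT sample 12 it was -1.45 per row length and did not pass (adjusted p = 0.0530).

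In iWAT against eWAT 3 of 35 were higher in iWAT and 21 higher in eWAT per row length, or 4 and 12 on reads alone. All genes passed at 52.4% (24.2% higher in iWAT and 28.3% higher in eWAT) per row length and at 25.6% on reads alone, and the list was not tested against them. Pnp (1.18 ± 0.18, and 0.77 on reads), Ampd2 (0.58 and 0.68) and Entpd5 (0.42 and 0.78), an endoplasmic reticulum nucleotidase, were higher in iWAT. Adssl1 (-2.62 and -3.05), Aprt (-2.36 and -2.32) and Ampd3 (-1.21 and -1.03) were higher in eWAT. Ahcyl2 was higher in eWAT per row length (-1.55) and did not pass on reads (0.01, adjusted p = 0.956). Without eWAT sample 15 Adssl1 was -1.08 (adjusted p = 0.0225) and Aprt -1.53 (adjusted p = 5.80e-06) per row length.

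**Figure D5:**
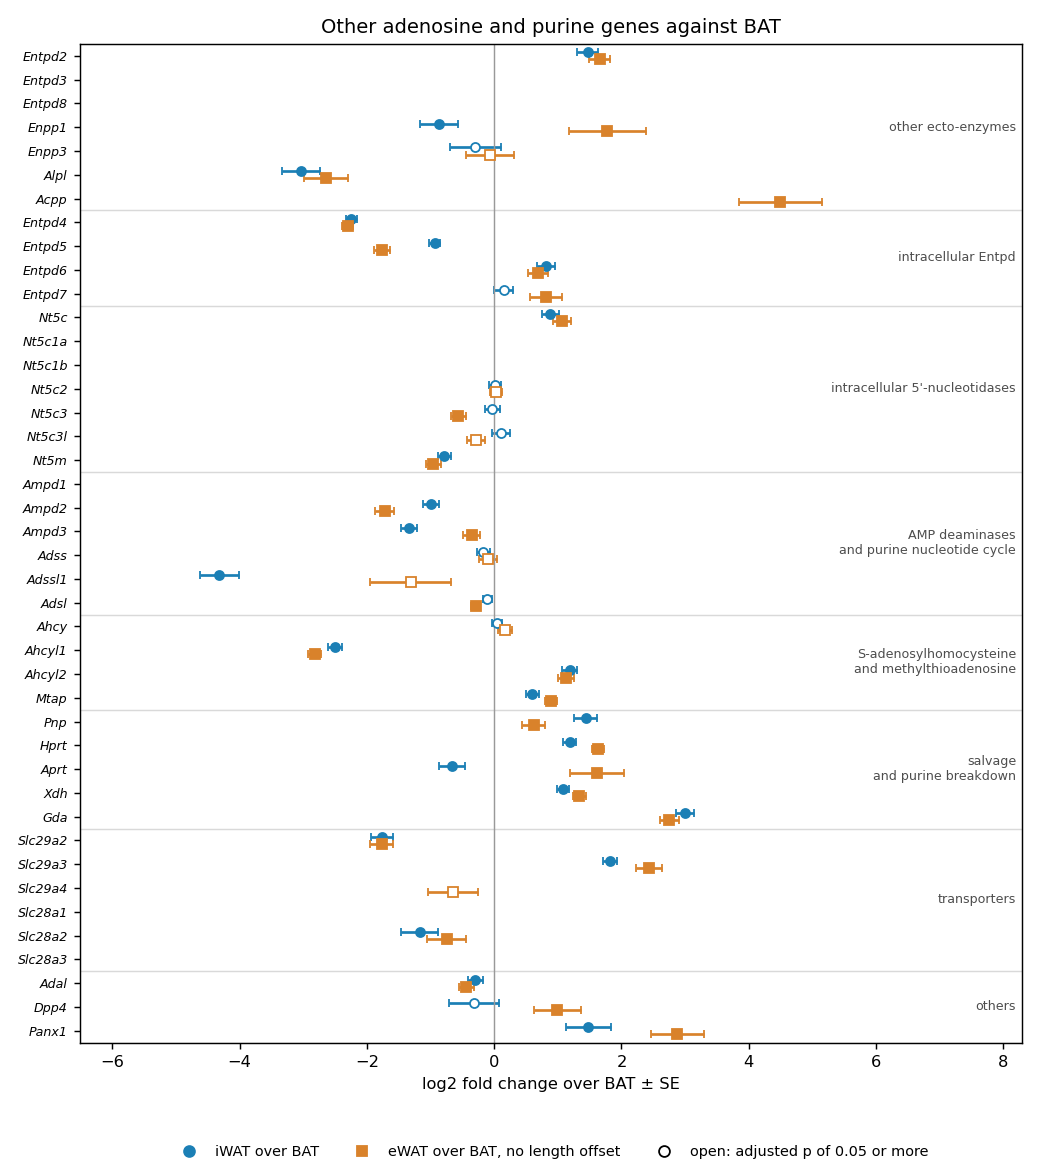
Log2 fold change ± SE over BAT of the 42 listed genes, for iWAT (blue circles) and for eWAT on reads alone (orange squares), in 8 groups. Filled symbols passed an adjusted p under 0.05 and genes without a symbol were not tested. Gda (3.0005 in iWAT) and Slc29a3 lie to the right, and Ahcyl1 and Alpl to the left.

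Genes with a pattern like that of each receptor were sought by Pearson correlation of log2(RPKM + 0.1), taken as deviations from the depot mean over 18 samples that share libraries and depth. Genes that reached a mean of 1 RPKM in each depot were compared, and the values are descriptions. The 3 most like Adora1 were Mybph (r = 0.95), whose row overlaps it, Nudt18 (0.90) and Htra3 (0.90), with 0.89, 0.80 and 0.78 without eWAT sample 15. The 3 most like Adora2a were Fscn1 (0.96), 5430416O09Rik (0.96) and Meox1 (0.95), which kept 0.96 each without that sample. The 3 most like Adora2b were Cln3 (0.92), Tyrobp (0.91) and Mpeg1 (0.91), with 0.79, 0.79 and 0.80 without it.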

How the data were processed

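RNA-seq of 18 samples was analysed. The authors deposited read counts per row, not normalized, and RPKM per row, equal to the count over the row's length and over the sample's single read total. The paper names the NEBNext Ultra RNA kit, the Genomatix Genome Analyzer and mm9. The submitters' processing notes name cutadapt (version 1.16) and HISAT2 (version 2.1.0). Strand use in counting is not given in the sources used here.

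From the counts, depots were compared with edgeR (version 4.0.16, glmQLFit and glmQLFTest) in R (version 4.3.3), with TMM scaling, library sizes set to the totals behind the RPKM, and at least 10 reads in at least 6 samples. iWAT and BAT were fitted on merged rows of 12 samples. Comparisons with eWAT used 18 samples, 1 row per symbol and row length as an offset. The median ratio of merged to eWAT row length was 1.16. An adjusted p under 0.05 (Benjamini-Hochberg) was the threshold. The code was tested on simulated counts. limma (version 3.58.1, on log2 of RPKM plus 0.1 or 1), DESeq2 (version 1.42.0), other filters, rows, scalings, blocks and left-out samples were alternatives.

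The 9 members, the 42 listed genes and the marker lists were chosen with earlier results of these data known. Named from the 42 were, by rule, the 4 with the largest change in each direction per comparison if they passed the test and averaged 1 RPKM or more where they were higher. Other listed genes were named after their values were seen. Of the marker lists, those not named beside a result (adipocyte, brown adipocyte, mast cell, lymphocyte, neutrophil, fibroblast, mural, mesothelial and Schwann cell) are given in the closing section. Intervals and floors cover counting error only. Gene overlaps came from GENCODE vM1 on NCBIM37 (mm9).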

Additional observations from a re-analysis of the deposited data

Results flagged for a closer look

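In each of 27 combinations of gene and depot the highest or lowest of 6 samples was compared with the rest, and 6 had a gap to the nearest sample above Dixon's critical share of the range. Chance flags about 1 in 20 such groups. In eWAT sample 15, Adora1 was 7.36 RPKM against 12.3 to 14.4 in the other 5 samples. Adora2b in the same sample was 4.52 RPKM against 0.281 to 1.38, and Entpd1 was 14.96 RPKM against 2.51 to 5.32. This sample also had the most macrophage marker RPKM (2218) and the least adipocyte marker RPKM of eWAT (8734), and the part of these in the values was not tested. In iWAT sample 14, Adora2a was 6.76 RPKM against 1.03 to 2.88, and Ada was 2.92 RPKM against 1.49 to 1.99. In iWAT sample 11, Adora2b was 0.635 RPKM against 0.105 to 0.205.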

How the results depend on the processing

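Of 374 member fold changes under an alternative, 314 kept their direction and their side of the threshold. Of the 100 list counts, 90 stayed within 1.5 times. With a log2 fold change of at least 1, 1 member and 15 listed genes passed in iWAT against BAT and 10 listed genes in iWAT against eWAT, and the calls over all genes fell to 6346, 8196 and 3363 in the 3 comparisons. Over rows of the same definition in both kinds of file (5733 tested, no member), 3887 genes and 1 listed gene passed in eWAT against BAT, and 736 genes and 0 listed genes in iWAT against eWAT (edgeR, also 0 at an unadjusted p under 0.05). On reads alone iWAT against eWAT fell from 9640 to 4712 genes. Added after seeing the data, reads alone without eWAT sample 15 gave 4133 genes, 3 members and 15 listed genes there.

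Values that reversed were, apart from Adk and Nt5e, of genes that did not pass. In iWAT against BAT Adora1 was 0.17 and 0.16 by limma with a pseudocount of 0.1 or 1, 0.17 without TMM scaling and 0.19 with the block added, and Entpd1 was 0.070, 0.050 and 0.15 under the first 3. In eWAT against BAT Adora2a was 0.13, 0.11 and 0.15 under these 3. With the longest eWAT transcript, Nt5e was -2.28 and Adk -4.09 in eWAT against BAT, and 1.47 and 4.47 in iWAT against eWAT. Adk in iWAT against eWAT was 0.26 on reads alone, 0.20 also without eWAT sample 15 and 0.26 also with the block. Adora2a in iWAT against eWAT, whose main value was near 0, was -0.63 and -0.44 by limma, -0.020 with no filter, -0.25 with the block, -0.17 with the longest transcript, -0.42 on reads alone, -0.45 without TMM scaling and -0.66 on reads with the block. It was -0.58 to -0.03 with samples left out, -0.11 without eWAT samples 14 and 15, and -0.45 on reads without eWAT sample 15. The cause was not tested, except where the longest transcript or the length offset changes the row itself.

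The number in the titles was tried as a replicate block. Correlations of same-numbered samples were -0.04 to 0.13 (iWAT and BAT), -0.17 to 0.06 (eWAT and BAT) and -0.32 to 0.13 (iWAT and eWAT), and 2 of 26 samples correlated best with their own number, so these data show no pairing, and the labels do not state whether a number marks the same mouse. With the block, Adora2a passed in iWAT against BAT (-1.25, adjusted p = 0.0127), Nt5e did not (-0.61, adjusted p = 0.156), and Adora2b did not pass in iWAT against eWAT (-1.28, adjusted p = 0.209). With the block 4 members passed in iWAT against BAT, 7 in eWAT against BAT and 6 in iWAT against eWAT. With the block on reads alone, 4 members passed in eWAT against BAT, and 2 members, 13 listed genes and 3155 genes in iWAT against eWAT. Depth limits Adora3, and Adora2b in BAT, which have few reads.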

Other observations

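The remaining marker lists were summed in RPKM for each sample and are given as ranges for iWAT, eWAT and BAT in this order. The adipocyte list had 10736 to 16221, 8734 to 16401 and 5797 to 7173, and the brown adipocyte list 19.7 to 30.4, 1.75 to 4.70 and 1750 to 2327. The fibroblast list had 55.1 to 96.8, 71.7 to 177 and 31.6 to 42.7, the mural list 32.6 to 106, 87.5 to 182 and 66.0 to 108, and the mesothelial list 3.64 to 4.59, 14.2 to 29.4 and 11.1 to 13.4, with Msln at 0 reads in iWAT. The Schwann cell list had 3.08 to 7.95, 1.44 to 4.18 and 21.5 to 44.0. The mast cell list had 1.07 to 4.61, 1.56 to 3.02 and 1.05 to 3.70, the lymphocyte list 0.143 to 1.55, 0.911 to 2.29 and 0.364 to 0.920, and the neutrophil list 1.78 to 5.57, 4.03 to 10.8 and 0.226 to 1.54.

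The 2 Adk transcripts with the most reads in eWAT, AK151863 (1818 bp) and NM_134079 (1701 bp), had 26.6 ± 4.28 and 27.6 ± 4.36 RPKM (SD, n = 6), whereas AK157662 (4243 bp) had 0.405 ± 0.0856 RPKM. The longer Nt5e transcript AK171528 had 2 to 7 reads a sample in eWAT, against 28 to 77 for NM_011851.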
